A study of Mus musculus with 30 samples.

Results

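C3, C4b, F5, Lrp1, Iqgap2, Man2a1, Fth1 and Eef1a1 are 8 genes of complement, coagulation, endocytosis and general cell upkeep whose RNA was measured in mouse sperm libraries. They were chosen by their level in the 46-day table, because each was far higher in library 12, from a tesaglitazar-injected male, than in the other 13 libraries. They are 8 of the 3082 features of that table, and all 8 are among the 16242 features of the 24 h table, with 16367 features in either. Since the choice used library 12, its values and the 46-day contrast that holds it are given as a description with no test, and the treatment was tested at 46 days without library 12 and at 24 h.

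Males of the C57Bl/6J strain, 3 months old and with no genetic change named in the sources, received tesaglitazar, which activates the nuclear receptors PPARα and PPARγ, at 10 µg/kg into the peritoneum 2 times per week for 4 weeks (Tesa-inj), or the same DMSO in saline without it (Vehicle-inj). Sperm was obtained by swim-up from the cauda epididymis, with lysis of somatic cells. Total RNA depleted of rRNA was sequenced from sperm taken 46 days after the last injection, from 7 Tesa-inj and 7 Vehicle-inj libraries, and polyadenylated RNA from sperm taken 24 h after it, from 4 and 4. The study's legend for its sperm RNA plots counts fewer Tesa-inj animals than there are libraries deposited for that group, and names no library as left out. Libraries held 4538102 to 13513816 counts at 46 days and 15337589 to 27709990 at 24 h. The RNA selection differs between the times, so levels were compared only within a time.

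Complement is a cascade of plasma proteins in which C3 is the component on which all activation routes meet, and C4b encodes C4, part of the protease complex that cleaves C3 in the classical and lectin routes. F5 is coagulation factor V, the cofactor of factor Xa in thrombin formation. The liver secretes most plasma C3, C4 and factor V, and macrophages and stromal cells make complement locally, while mature sperm carries RNA left over from the spermatid stage. Among the other 5 genes, Lrp1 is a large endocytic receptor of the LDL receptor family, Iqgap2 is a scaffold of the actin cytoskeleton, Man2a1 is the Golgi mannosidase that trims N-glycans, Fth1 is the heavy chain of ferritin, and Eef1a1 delivers aminoacyl-tRNA to the ribosome.

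The labelled tissue, sperm, was checked against RNA of late spermatids, which both tables held. Of 24 late spermatid and sperm markers, 19 were in the 46-day table, with Akap3, Catsper1, Izumo1, Spata3 and Tekt2 absent from it, and 24 were in the 24 h table. Their summed level at 46 days was 574 counts per 1000000 (CPM, scaled by the trimmed mean of M values, TMM) in library 12 and 485 to 1144 CPM in the other 13, with a median of 842 CPM. Library 12 was thus within the range of the others for this sum, above Vehicle-inj library 13 alone. None of the 19 markers was at 0 in any of the 14 libraries, and Prm2, a protamine that packs sperm DNA, was at 100 CPM in library 12 and at 69.7 to 244 CPM in the others. Oaz3, at 62.4 CPM, and Odf2, of the tail's outer dense fibers, at 54.1 CPM, were lower in library 12 than in each of the others, at 73.0 to 140 CPM and 63.3 to 148 CPM.

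Depth at 46 days was set by few features. Rn18s-rs5, an 18S rRNA feature, was the most abundant in each library but Vehicle-inj library 14. It held 58.8% of counts in library 12, with 30.6% in Tesa-inj library 11 as the lowest and 74.8% in Tesa-inj library 2 as the highest. In Vehicle-inj library 14 it held 8.64%. Library totals include these rRNA counts. Outside the 10 most abundant features of each library, 299131 counts were left in library 12, 75389 in Tesa-inj library 2 and 5673116 in Vehicle-inj library 14. Of the 3082 features, 1518 had more than 20 counts in library 12. Libraries 11 to 14, library 12 among them, also held 0.146% to 0.413% of their counts on Lars2, a mitochondrial leucyl-tRNA synthetase, against 0.00921% to 0.0212% in libraries 1 to 10. The labels name no batch, so the contrasts were also fitted with a term for libraries 11 to 14 and on libraries 1 to 10 alone.

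C3 stood at 1654 CPM in library 12, with 4184 counts, and at 1.47 to 9.31 CPM in the other 13 libraries, with a median of 2.53 CPM. C4b was at 430 CPM in library 12, with 1087 counts, and at 1.05 to 7.20 CPM elsewhere, with a median of 2.60 CPM. Both complement genes were thus above every other library by a wide margin, and next came Tesa-inj library 2 for C3, on 8 counts, and Tesa-inj library 11 for C4b. The ratio of library 12 to the highest other library was 178 for C3 and 59.7 for C4b. C4b has a close paralog, C4a, with which it can share reads, and C4a is not in the 46-day table.

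F5 was at 222 CPM in library 12, on 562 counts, against 1.98 to 4.95 CPM in the other 13, a ratio to the highest of 44.9. F7 and Vwf were the other coagulation genes in the table, of 28 listed. F7, the protease that starts the tissue factor route, was at 19.0 CPM in library 12 and at 2.37 to 5.03 CPM in the others, whereas Vwf, the platelet adhesion protein of endothelium, was at 29.2 CPM and within the 22.1 to 70.7 CPM of the others.

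Lrp1 reached 466 CPM in library 12, on 1180 counts, against 1.65 to 6.24 CPM elsewhere, the second largest ratio among the 8 genes at 74.7. Its relatives Lrp4 and Lrp5, the other genes of the LDL receptor list of 22 in the table, were at 21.3 CPM, against 1.05 to 4.66 CPM, and at 17.8 CPM, within the 11.6 to 27.8 CPM of the others. Iqgap2 was at 140 CPM on 354 counts, against 1.49 to 2.88 CPM, a ratio of 48.7. Of the IQGAP list, 9 of 17 genes were in the table, and Cltc, Actb and Myh9 had ratios of 4.24, 5.41 and 3.56, all far below that of Iqgap2. Under TMM, Flna, Iqgap3 and Clip1 of the same list were at their lowest of the 14 libraries in library 12, at 48.2, 5.53 and 1.19 CPM.

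Man2a1 was at 123 CPM in library 12, on 311 counts, and at 1.21 to 4.13 CPM in the others, a ratio of 29.7. Mgat5, which branches N-glycans, is the only other of 22 N-glycan genes in the table. Under TMM it was lower in library 12, at 6.32 CPM on 16 counts, than in each of the others, at 9.84 to 14.2 CPM. Fth1, the only 1 of 19 iron genes in the table, was at 145 CPM on 368 counts, against 0.503 to 4.91 CPM, a ratio of 29.6. Eef1a1 was at 870 CPM on 2202 counts, against 3.02 to 39.5 CPM, a ratio of 22.0 and the smallest of the 8. Of 16 elongation genes 7 were in the table, and Eef2, the translocase, and Tpt1 followed Eef1a1 with ratios of 13.1 and 17.7, while Eef1g was at 1.35. Fth1 and Eef1a1 both have processed pseudogenes, so their counts may be split with near-identical copies.

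**Figure D1:**
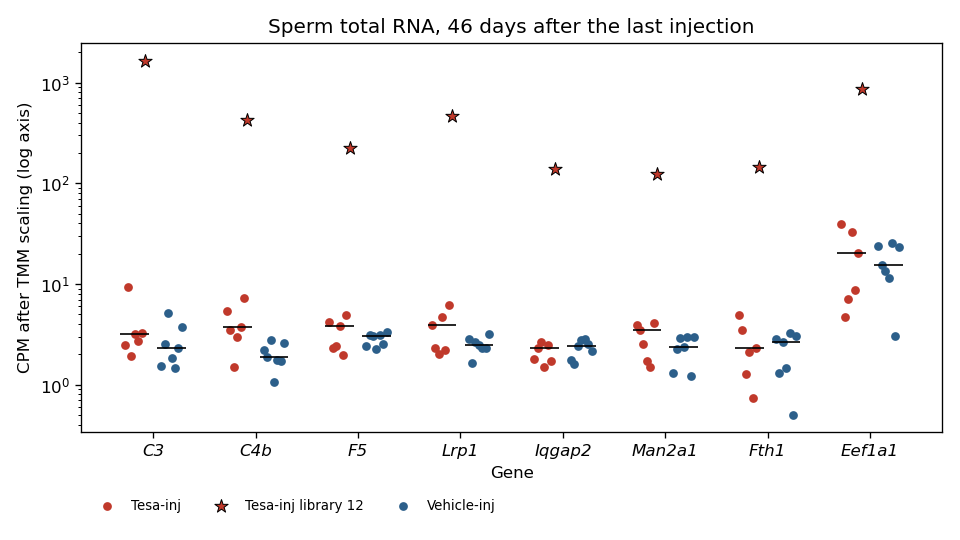
Level of each of the 8 genes in the 7 Tesa-inj (red) and 7 Vehicle-inj (blue) libraries at 46 days, in CPM after TMM scaling on a log axis; each point is a library, the star is library 12 and the black lines are group medians. Library 12 lies above all other points for every gene, by 22.0 times for Eef1a1 to 178 times for C3, and the remaining libraries of both groups overlap. Levels are not comparable between genes.

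The ratios depended on the scaling. Set against library totals, C3 in library 12 was 17.3 times the highest other library, Lrp1 4.88 times and C4b 3.90 times, but Man2a1 1.62 times, Fth1 1.85 times and Eef1a1 1.46 times. F5 and Iqgap2 were between these, at 2.61 and 2.50. Of the list genes named above, Tpt1, Eef2, Lrp4, Actb, Cltc, Myh9, F7 and Eef1g had ratios from 0.993 down to 0.0595 under library totals, so library 12 was not their highest. Oaz3, Odf2, Flna, Iqgap3, Clip1 and Mgat5, lowest in library 12 under TMM, were lower in Tesa-inj library 2 under library totals. Each of the 8 genes was still highest in library 12 on that scale, as were 44 of the 1518 features with more than 20 counts there, against 603 under TMM. The median of those features in library 12 over the median of the other libraries was 0.27 on the log2 scale under TMM and -1.43 under library totals. A scale that uses neither, counts of a gene per 10000 counts on the late spermatid and sperm markers, was added after the data were seen. On it C3 was at 28797 in library 12 and at 14.3 to 130 in the others, a ratio of 222, and Eef1a1 was at 15156 against 61.9 to 397, a ratio of 38.2. The other 6 genes had ratios between 44.0 for Man2a1 and 142 for Lrp1 on this scale.

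**Figure D2:**
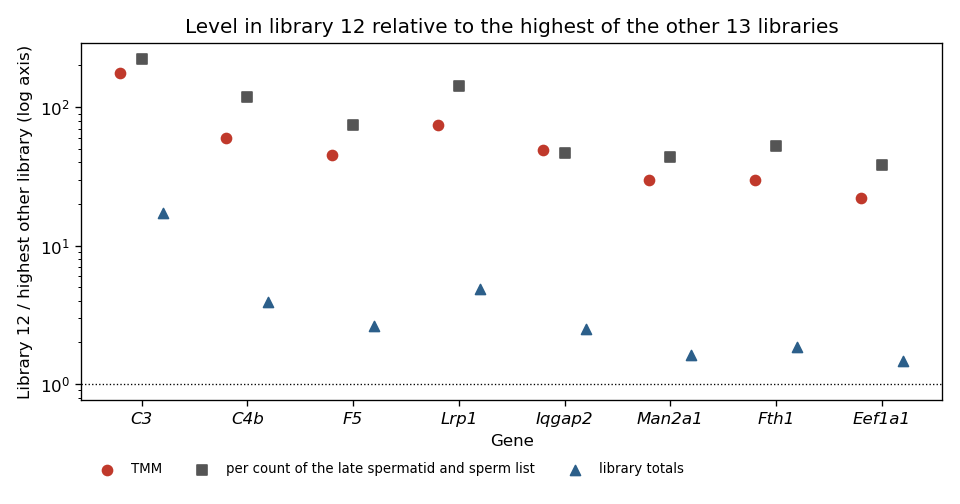
Level of each of the 8 genes in library 12 divided by that in the highest of the other 13 libraries at 46 days, on a log axis, under TMM (circles), per count on the late spermatid and sperm markers (squares) and under library totals (triangles); the dotted line marks a ratio of 1. All points are above the line, and library totals give the smallest ratios, from 1.46 for Eef1a1 to 17.3 for C3.

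Ranked by the ratio to the highest other library, the 8 genes were at places 1, 2, 3, 6, 7, 9, 10 and 16 of 1518 under TMM. Under library totals they were at 1, 7, 9, 14, 15, 19, 23 and 28, and the mitochondrial mt-Cytb, mt-Nd1 and mt-Nd4, with ratios of 12.0, 10.3 and 9.83, were then above all of them but C3. Under TMM, of the 19 features over 20 times the highest other library, 8 were these genes. Other features with large ratios were mt-Co1, Zbtb20, RP23-8J15.1, Elovl5, Rpph1, Eif4b, RP23-8J15.2, Hadha, Pcx, RLTR6_Mm and Canx, with ratios from 56.0 for mt-Co1 to 20.6 for Canx. Pcx, pyruvate carboxylase, was at 93.7 CPM in library 12 and at most 4.45 CPM elsewhere. Hadha, of mitochondrial fatty acid oxidation, was at 94.5 CPM and at most 4.21 CPM, and Elovl5, a fatty acid elongase, at 88.5 CPM and at most 3.72 CPM. These enzymes accompanied the 8 genes in library 12, with Canx, the membrane chaperone of the endoplasmic reticulum, at 71.9 CPM against at most 3.49 CPM.

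Canx is 1 of 10 genes in the table from a list of 54 for the endoplasmic reticulum and secretion, whose summed level was 300 CPM in library 12 and 59.1 to 76.1 CPM in the others. Pdia3, Stt3b and Sec61a1 of that list had ratios of 13.1, 3.94 and 3.77 under TMM and of 1.15, 0.203 and 0.196 under library totals. Under library totals the list's sum in library 12 was 1.36 times the median of the others, against 4.35 times under TMM.

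Markers of other cells were sought in the same table, which holds only features with more than 20 estimated counts in at least 3 libraries, so a gene abundant in library 12 alone would not be in it. In bulk RNA, more cells of a type and more RNA per cell cannot be told apart. None of 32 hepatocyte, 28 epididymal epithelium, 17 accessory gland, 12 smooth muscle, 10 erythroid, 13 Sertoli, 10 Leydig or 10 kidney proximal tubule genes was in it, Alb, Apoa1 and Ttr of hepatocytes and Crisp1 of epididymis included. Of 27 leukocyte and macrophage genes, H2-Eb1 and Aif1 were in it, with Ptprc, Cd68 and Csf1r absent from the table. The sum of H2-Eb1 and Aif1 was 3.56 CPM in library 12, on 8 and 1 counts, lower than the 6.73 to 11.2 CPM of the others. Under library totals it was 1.13 CPM in library 12, and Tesa-inj library 2 was lower at 0.685 CPM.

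The list for peritoneal macrophages had 6 of 23 genes in the table, of which C3, C4b, F5 and Lrp1 are 4, and its sum of 2788 CPM in library 12 was theirs almost entirely. Without them, Garnl3 and Thbs1 summed to 16.6 CPM in library 12, within the 8.04 to 35.1 CPM of the others. Of 20 fibroblast and stroma genes, Col5a1 and Fstl1 summed to 11.1 CPM, within the 8.15 to 12.5 CPM of the others. Vwf was the only 1 of 14 endothelial genes, and Cenpf, at 2.77 CPM on 7 counts against 1.27 to 3.49 CPM, the only 1 of 16 cell cycle genes. Of 18 adipocyte genes 3 were present, and they parted in library 12. Fasn, fatty acid synthase, was at 77.9 CPM against at most 5.02 CPM, Acsl1 at 283 CPM against 75.8 to 144 CPM, and Lipe, hormone-sensitive lipase, at 13.0 CPM, below the 19.8 to 38.9 CPM of the others. Under library totals the ratio to the highest other library was 1.10 for Fasn and 0.0893 for Acsl1. On that scale Lipe was lower in Tesa-inj library 2 than in library 12. The cell source of the 8 RNAs in library 12 was not tested.

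With library 12 in, Pearson's r of log2 CPM between the 8 genes was set by that library, for which they were chosen, and had a median of 0.930 over 28 pairs and 14 libraries. Over the other 13 libraries the median r was 0.356, 8 of 28 pairs were above 0.5 and 7 were below 0. F5 and Lrp1 were the closest pair in both, at 0.762 over the 13, and F5 and Iqgap2 the most opposed there, at -0.603. Outside library 12 most counts of these genes were low, with C3 for example at 6.69 to 291 counts per library.

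Among the features most like the mean of the 8 genes over 14 libraries were Malat1, Rpph1, Eef2, Glul and Snrnp200, with r between 0.969 and 0.985. Over the 13 libraries without library 12 they were Rpl41, RP23-422L16.21, Comp, Spem1, Phkg2 and Fhl4, with r between 0.877 and 0.910. Malat1 had r of 0.823 over these 13, and Glul, glutamine synthetase, 0.584. In library 12 Glul was at 167 CPM, against 3.22 to 9.25 CPM in the others, and under library totals at 0.974 times the highest of them.

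Tesa-inj and Vehicle-inj males were then compared at 46 days, first over all libraries as a description. With 7 libraries a group, the log2 fold change of Tesa-inj against Vehicle-inj was positive for all 8 genes, 6.47 for C3, 4.99 for C4b, 4.79 for Lrp1 and 3.06 to 3.57 for the other 5. The values were 0.31 to 3.39 under library totals, and -0.19 to 1.01 in DESeq2, which replaces outlying counts. With a term for libraries 11 to 14 they were 1.20 to 2.39, and on libraries 1 to 10 alone -0.11 to 0.81. Without library 12 C3, C4b and Lrp1 were at 0.17, 1.02 and 0.57 and the other 5 at -0.24 to 0.28. The contrast with library 12 holds the values that chose the genes and is no test of the treatment.

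Without library 12, with TMM recomputed over 6 Tesa-inj and 7 Vehicle-inj libraries, none of the 8 genes and none of the 2966 features tested, 0%, had a Benjamini-Hochberg adjusted p under 0.05 in edgeR's quasi-likelihood test. At an unadjusted p under 0.05 edgeR gave 92 features, 3.1%, of which 25, or 0.843%, were higher in Tesa-inj and 67, or 2.26%, lower. Its exact test gave 112 and DESeq2 124 at that level, and neither called any at an adjusted p under 0.05. With 1 more library left out, edgeR gave from 56 features without Tesa-inj library 1 to 212 without Tesa-inj library 4. The split moved with the scaling, to 39 higher and 59 lower with DESeq2 size factors in edgeR and to 0 higher and 48 lower under library totals. Without Tesa-inj library 11 it was 45 higher and 47 lower. DESeq2, which differs in both test and scaling, gave 48 higher and 76 lower. The features with the smallest p were the repeat families RLTR13D3A1 and RMER16B2, both lower in Tesa-inj.

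C4b was the only 1 of the 8 with an unadjusted p under 0.05 in edgeR's quasi-likelihood test, while DESeq2 gave 2 of the 8 and library totals 0. It was at 1.53 CPM in the lowest, 4.05 CPM in the median and 7.53 CPM in the highest of 6 Tesa-inj libraries, and at 1.17, 2.12 and 3.12 CPM in the 7 Vehicle-inj libraries. Of the 6 Tesa-inj libraries 5 were above every Vehicle-inj library, and library 3 was the exception. The log2 fold change of C4b was 1.02 (SE 0.32). By the quasi-likelihood test of edgeR its p was 0.00638 unadjusted and 1.00 after Benjamini-Hochberg adjustment, with adjusted values of 0.675 to 1.00 over the alternatives. The value was positive under every scaling tried and with each library left out, between 0.74 without Tesa-inj library 11 and 1.23 without Tesa-inj library 3, and was 0.44 under library totals, where the median of all tested features was -0.92. The count of 1 in 8, beside 3.1% of all features, rests on C4b alone.

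C3, which acts after C4 in the cascade, was at 1.96, 3.23 and 10.4 CPM in the lowest, median and highest Tesa-inj library and at 1.61, 2.70 and 5.72 CPM in the Vehicle-inj libraries, and the groups overlapped but for library 2 with its 8 counts. Its log2 fold change was 0.17 (SE 0.37), with a Benjamini-Hochberg adjusted p of 1.00 (edgeR, quasi-likelihood test), and -0.04 without library 2. These were the only complement genes of 40 in the table.

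Lrp1 was at 2.07, 3.34 and 6.53 CPM in the lowest, median and highest Tesa-inj library and at 1.85, 2.78 and 3.40 CPM in the Vehicle-inj libraries. Of the 6 Tesa-inj libraries 3 were above all Vehicle-inj libraries, and the others lay among them. The log2 fold change was 0.57 (SE 0.27), with a Benjamini-Hochberg adjusted p of 1.00 (edgeR, quasi-likelihood test), and -0.04 under library totals. F5, with medians of 3.44 CPM in Tesa-inj and 3.38 CPM in Vehicle-inj, had a log2 fold change of 0.25 (SE 0.22), and 3 of its 6 Tesa-inj libraries were likewise above all Vehicle-inj libraries.

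Of the intracellular genes, Iqgap2 was the only 1 of the 8 with a negative value, -0.24 (SE 0.22), and no Tesa-inj library was above the highest Vehicle-inj library. Man2a1, Fth1 and Eef1a1 had log2 fold changes of 0.28, 0.11 and 0.22 with SE of 0.28, 0.43 and 0.48. For Man2a1 3 of the 6 Tesa-inj libraries were above all Vehicle-inj libraries, and for Fth1 and Eef1a1 2. Eef1a1 spread widest, from 5.21 to 41.2 CPM in Tesa-inj and from 3.52 to 28.2 CPM in Vehicle-inj. The median log2 fold change of the 8 genes was 0.23, against -0.04 over all features tested, and under library totals 7 of the 8 were negative. With a term for libraries 11 to 14 the 8 genes were between -0.25 and 1.03, and on libraries 1 to 10 alone between -0.11 and 0.81. Each kept its sign. In these fits 2 and 1 of the 8 had an unadjusted p under 0.05 in edgeR, beside 119 of 2966 and 73 of 2750 features.

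The lists around the 8 genes gave no other gene at an unadjusted p under 0.05 at 46 days. In the Tesa-inj to Vehicle-inj contrast without library 12, the median log2 fold change was 0.10 for 3 coagulation genes, -0.01 for 3 genes of the LDL receptor list, 0.09 for 9 IQGAP genes, 0.19 for 2 N-glycan genes, 0.08 for 7 elongation genes and -0.00417 for 10 genes of the secretory pathway. The 19 late spermatid and sperm markers had a median of 0.05.

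At 24 h each of the 8 genes was abundant enough to be tested, at counts from 30 for F5 to 80429 for Eef1a1 in single libraries. None of them and none of the 13752 features tested, 0%, reached a Benjamini-Hochberg adjusted p under 0.05 with edgeR's quasi-likelihood test, with its exact test or with DESeq2. At an unadjusted p under 0.05 edgeR gave 372 features, 2.71%, with 131 higher in Tesa-inj, 0.953%, and 241 lower, 1.75%, while its exact test gave 369 and DESeq2 492. None of the 8 genes was among the 372. Under library totals the split was 120 higher and 31 lower, and the median of all features moved from -0.02 to 0.19. RP23-175J8.3 and Rny1, a Y RNA, had the smallest p, both lower in Tesa-inj.

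C3 at 24 h was at 24.4, 34.7, 56.4 and 42.0 CPM in Tesa-inj libraries 1, 3, 5 and 7 and at 44.1, 105, 50.4 and 19.0 CPM in Vehicle-inj libraries 2, 4, 6 and 8. The highest and the lowest library were both Vehicle-inj, so the Tesa-inj values lay inside the range of the other group. The log2 fold change was -0.47 (SE 0.46), with a Benjamini-Hochberg adjusted p of 1.00 (edgeR, quasi-likelihood test), as for each of the 8 genes, and 0.07 without Vehicle-inj library 4.

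C4b was at 9.93, 12.2, 13.3 and 25.3 CPM in Tesa-inj libraries 1, 3, 5 and 7 and at 28.7, 13.1, 9.31 and 8.52 CPM in Vehicle-inj libraries 2, 4, 6 and 8. Library 7 of Tesa-inj and library 2 of Vehicle-inj were high and the other 6 close together, with a log2 fold change of 0.03 (SE 0.45). Its paralog C4a was at 0 to 1.70 CPM. The difference between the C4b values at 46 days and at 24 h was not tested.

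F5 was at 1.85, 3.42, 2.86 and 4.24 CPM in Tesa-inj and at 9.78, 3.40, 2.47 and 3.15 CPM in Vehicle-inj, in the same order of libraries. Vehicle-inj library 2, highest for F5 as for C4b, stood apart from the other 7, and the log2 fold change was -0.59 (SE 0.54). Lrp1 was at 11.3, 30.5, 23.0 and 19.4 CPM in Tesa-inj and at 18.4, 42.7, 9.27 and 12.7 CPM in Vehicle-inj, with a log2 fold change of 0.03 (SE 0.48). Its highest library was Vehicle-inj library 4, also the highest for C3.

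Iqgap2 and Man2a1 had the same highest library. Iqgap2 was at 18.1 to 39.9 CPM in Tesa-inj and at 47.3 CPM in Vehicle-inj library 4, with 16.5 to 19.0 CPM in the other Vehicle-inj libraries. Man2a1 was at 10.3 to 14.1 CPM in Tesa-inj, at 24.1 CPM in Vehicle-inj library 4 and at 9.70 to 13.8 CPM in the other 3. Their log2 fold changes were 0.04 (SE 0.39) and -0.26 (SE 0.33).

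Fth1 and Eef1a1 went the other way between libraries. Fth1 was at 233 CPM in Vehicle-inj library 4 and at 369 to 482 CPM in the other 7, and Eef1a1 was at 976 CPM in Vehicle-inj library 2, 1305 CPM in Vehicle-inj library 4 and 1357 to 2173 CPM in the others. Their log2 fold changes were 0.18 (SE 0.26) and 0.30 (SE 0.31). The median log2 fold change of the 8 genes at 24 h was 0.03, against -0.02 over all features tested.

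**Figure D3:**
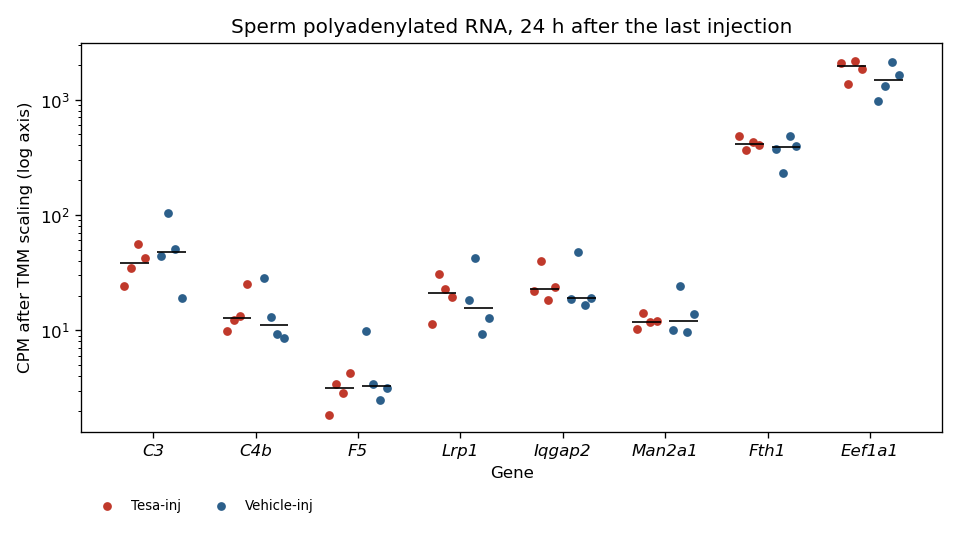
Level of each of the 8 genes in the 4 Tesa-inj (red) and 4 Vehicle-inj (blue) libraries at 24 h, in CPM after TMM scaling on a log axis; each point is a library and the black lines are group medians. The groups overlap for every gene, and a Vehicle-inj library is the highest for each gene but Eef1a1, at 105 CPM for C3. For Fth1 the margin is small, at 482 CPM in Vehicle-inj against 481 CPM in Tesa-inj. Levels are not comparable between genes.

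The lists were better covered at 24 h, where 6569 of all features tested were higher and 7183 lower in Tesa-inj under TMM, a split that moves with the scaling. Of 40 complement genes 24 were in the table and 23 were tested, with 9 higher and 14 lower in Tesa-inj and none at an unadjusted p under 0.05. Clu, clusterin, a complement inhibitor made by epididymal epithelium, was the most abundant, at 375 to 1204 CPM in Tesa-inj and 393 to 607 CPM in Vehicle-inj. C1qa, of the recognition molecule that starts the classical route, was at 4.84 to 13.5 CPM and Cfb, of the alternative route, at 1.43 to 6.35 CPM over the 8 libraries. Of the terminal genes, Hc, C6, C8a, C8b and C9 were not in the table, while C7 was at 1.21 to 6.31 CPM and C8g at 0 to 4.07 CPM.

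Of 28 coagulation genes 11 were tested, 2 higher and 9 lower, and Vwf had an unadjusted p under 0.05, lower in Tesa-inj. The LDL receptor list had 14 tested genes, 8 higher and 6 lower, with none at that level, and in the IQGAP list of 17, with 7 higher and 10 lower, Cltc, clathrin heavy chain, was at 34.4 to 48.3 CPM in Tesa-inj and 50.6 to 64.0 CPM in Vehicle-inj. None of 20 tested N-glycan genes, 10 higher and 10 lower, or 54 secretory pathway genes, 15 higher and 39 lower, was at an unadjusted p under 0.05. The iron list had 13 tested, 6 higher and 7 lower, with Lcn2, which binds siderophores, at 15.0 to 37.0 CPM in Tesa-inj and 11.1 to 19.0 CPM in Vehicle-inj, and Tfrc, the transferrin receptor, at 0.493 to 2.57 CPM and 2.67 to 11.0 CPM. Of 13 tested elongation genes 10 were higher and 3 lower, Eif5a with an unadjusted p under 0.05 at 64.9 to 116 CPM against 41.1 to 64.9 CPM. All these had a Benjamini-Hochberg adjusted p of 1.00 (edgeR, quasi-likelihood test).

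RNA of other cells was present in each library at 24 h. The epididymal list, 13 of 28 genes in the table, summed to 920 to 2437 CPM, with Crisp1 its most abundant gene, and the leukocyte and macrophage list, 26 of 27 genes, to 313 to 632 CPM, with Cd74 on average the most abundant. The late spermatid and sperm list summed to 4231 to 13656 CPM, with its lowest sum in Vehicle-inj library 4, where C3, Lrp1, Iqgap2 and Man2a1 were highest. The fibroblast and stroma list, 14 of 20 genes, was at 269 CPM in that library and at 67.7 to 178 CPM in the other 7.

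The peritoneal macrophage list, 16 of its genes in the table beside the 4 shared ones, summed to 444 CPM in Vehicle-inj library 2, where C4b and F5 were highest, and to 86.1 to 193 CPM in the others, with Gata6 and Timd4, its defining markers, absent from the table. Saa3, an acute phase protein and its most abundant gene, made up 252 of the 444 CPM in library 2 and was at 24.5 to 66.4 CPM in the others. The hepatocyte list had 6 of 32 genes, summing to 16.9 to 35.0 CPM, and Alb, Apoa1 and Ttr were not in the table. The table also held genes from the lists for accessory gland (6 of 17), endothelium (3 of 14), smooth muscle (11 of 12), adipocyte (9 of 18) and erythroid cells (5 of 10). The same held for Sertoli (3 of 13), Leydig (1 of 10), kidney proximal tubule (3 of 10) and cell cycle (12 of 16). The Leydig list rested on Fdx1 alone, without Star or Cyp11a1. Sertoli lacked Amh and Wt1, kidney Slc34a1 and Cubn, and endothelium Cdh5 and Kdr. Whether RNA of these cells was present was not tested. Of the genes tested, 12 late spermatid, 7 leukocyte, 9 peritoneal macrophage, 2 hepatocyte, 9 epididymal, 4 fibroblast, 9 smooth muscle, 5 adipocyte and 5 cell cycle genes were higher in Tesa-inj, and 12, 19, 9, 2, 4, 10, 1, 2 and 6 lower. Of the smaller lists, accessory gland had 1 higher and 3 lower, endothelium 2 and 1, erythroid 0 and 5, Sertoli 1 and 1, Leydig 0 and 1 and kidney 1 and 2. Beside Vwf, Ctss, a lysosomal protease of leukocytes, at 3.76 to 5.86 CPM in Tesa-inj and 7.36 to 9.11 CPM in Vehicle-inj, and Apoc1, at 7.57 to 15.4 CPM and 5.50 to 9.07 CPM, had an unadjusted p under 0.05.

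Over the 8 libraries, 184 relations between a gene and a list were computed, with the 8 genes taken out of the lists. For each gene the list with the largest Pearson's r in size is given, with Spearman's rho and with r without the 2 libraries farthest from the median of the list. Lrp1 followed the stroma list with r of 0.982 (rho 0.976) and 0.964 without the 2. C4b followed the hepatocyte list, of 6 genes, with 0.884 (rho 0.881) and 0.797, ahead of the peritoneal macrophage list with 0.846 (rho 0.786) and 0.602. Those 6 genes were Apoc1, Apoh, Fga, Hp, Trf and Ambp, without Alb, Apoa1 or Ttr, so this is a relation to them. The largest for F5 was the peritoneal macrophage list, with 0.892 (rho 0.833) and 0.901. Iqgap2 followed the N-glycan list with 0.972 (rho 0.905) and 0.814, and its r with the late spermatid and sperm list was -0.926 (rho -0.690) and -0.526. Eef1a1 followed the other elongation genes with 0.858 (rho 0.857) and 0.952. Man2a1 and Fth1 had r of 0.930 (rho 0.643) and -0.902 (rho -0.833) with the kidney list of 3 genes, which were 0.637 and -0.543 without the 2. Lrp2, an endocytic receptor also in the LDL receptor list, made up nearly all of that sum, with 152 of 155 CPM in Vehicle-inj library 4, so this is a relation to Lrp2. Fth1 had 0.896 (rho 1) and 0.914 with the elongation list. C3 had no r above 0.712 in size, that with the erythroid list at -0.712 (rho -0.667) and -0.0904. These are descriptions over 8 libraries that share depth and scaling, and the part of these cells in the values of the 8 genes was not tested.

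The 8 genes do not form a cluster in the genome. In the RefSeq annotation of GRCm38.p6, C4b at chr17:34728139-34743902, C3 at chr17:57203967-57228136 and Man2a1 at chr17:64600688-64755110 share a chromosome but are far apart. F5 is at chr1:164151835-164220277, Lrp1 at chr10:127538157-127621148, Iqgap2 at chr13:95627177-95892280, Fth1 at chr19:9980600-9985111 and Eef1a1 at chr9:78478453-78481724. All are protein-coding genes, and the estimated counts cover whole genes.

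Promoter sequences from RefSeq (GRCm38.p6) matched 7 of the 8 genes, all but C4b, and the 250 bases before each start in the promoter table were searched because tesaglitazar activates PPARs, which bind a direct repeat of the hexamer AGGTCA with 1 base between the copies. Fth1 has 2 such windows, and those of Man2a1 and Iqgap2 and 1 of Fth1 lie inside the gene's span given above. That repeat was in none of the windows of the 7 genes on either strand, and in 11 of 32851 promoters of this length, 0.0335%. The single hexamer AGGTCA, on either strand, is in 14.0% of all promoters and was found in C3, at position -243 counted from the gene's start, and in F5, at -57 as the reverse complement TGACCT. A match is a description, and no match says only that these letters are not in the window. The windows of these 2 secreted plasma proteins are printed 5′ to 3′ on the gene's strand, with the hexamer in capitals, C3 from chr17:57228137-57228386 on the minus strand and F5 from chr1:164151585-164151834 on the plus strand.
C3: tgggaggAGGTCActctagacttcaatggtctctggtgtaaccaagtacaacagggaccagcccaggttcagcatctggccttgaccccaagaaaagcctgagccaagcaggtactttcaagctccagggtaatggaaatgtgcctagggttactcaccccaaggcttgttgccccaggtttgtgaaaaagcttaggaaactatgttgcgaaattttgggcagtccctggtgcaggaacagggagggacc
F5: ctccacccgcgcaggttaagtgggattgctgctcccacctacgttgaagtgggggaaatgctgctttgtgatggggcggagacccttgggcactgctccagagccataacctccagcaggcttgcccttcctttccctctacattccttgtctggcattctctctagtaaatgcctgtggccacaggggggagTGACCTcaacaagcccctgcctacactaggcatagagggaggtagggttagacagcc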

How the data were processed

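The submitters' processing notes list Trim Galore 1.16, Salmon 0.11.2 and cutadapt 1.14 with the build GRCm38, and for sperm the study's methods name Trim Galore and Salmon. The deposited values are estimated counts per gene or repeat family, not normalized. They were used as whole numbers after rounding. A feature was tested if over 20 counts were found in 80% of the smaller group or more (5 libraries at 46 days without library 12, 4 at 24 h). Tests were the quasi-likelihood test from edgeR 4.0.16, run under R 4.3.3, with TMM over all features and Benjamini-Hochberg adjustment over all features tested. As alternatives, edgeR's exact test, DESeq2 1.42.0, its size factors, library totals, TMM over the tested features, no filter, filterByExpr, adjustment over features that are not repeat families, a term for or removal of libraries 11 to 14, and each library left out were run. Descriptions and figures used Python 3.11.15 and matplotlib 3.10.9, and correlations used log2 CPM with a prior count of 2. The tests were tested on simulated data. The 8 genes and the 23 lists (8 pathways and 15 cell types) were chosen with earlier results of these data known. Genes named are the 8 and genes from among up to 4 per list with the highest CPM in library 12, the 12 other features with the largest ratio in library 12, the 6 most alike over 14 and over 13 libraries, and the 2 with the smallest p per contrast. Any other gene given a value was picked with its values in view. The study counts n in animals and the labels name libraries, each taken here as a replicate, so p-values measure the spread between libraries. No pair of libraries in a group was identical, and the lowest chi-square per degree of freedom between any was 18.1. The serum table was not used.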

Additional observations from a re-analysis of the deposited data

Results flagged for a closer look

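At 46 days library 12 stood apart from the other 6 Tesa-inj libraries for all 8 genes, for which they were chosen. The gap to the nearest library, divided by the range of the group, was 0.996 for C3, 0.987 for C4b, 0.987 for F5, 0.991 for Lrp1, 0.992 for Iqgap2, 0.978 for Man2a1, 0.971 for Fth1 and 0.960 for Eef1a1. At 24 h F5 in Vehicle-inj library 2 (0.874, at 9.78 CPM with the next library at 3.40 CPM) and Iqgap2 in Vehicle-inj library 4 (0.921, at 47.3 CPM with the next at 19.0 CPM) stood apart from the other 3 libraries of their group. Of 32 groups of libraries examined 10 held such a library, and 8 of these are fixed by the choice of the genes. Only the 2 at 24 h are outside that choice. A rate of about 1 in 20 groups would hold for independent groups of normally distributed values. The groups here are CPM of genes measured in the same libraries, so that rate cannot be set against the 2.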

How the results depend on the processing

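No paired analysis was possible because the replicate numbers only name libraries and the compared groups share none. In the 46-day contrast without library 12 and at 24 h, 0 of the 8 genes and 0 features had an adjusted p under 0.05 in edgeR's quasi-likelihood test under any alternative run or with any library left out. At an unadjusted p under 0.05 it gave 92 and 372 features, the exact test 112 and 369, and DESeq2 124 and 492. With each library left out, its counts ran from 56 to 212 at 46 days without library 12 and from 259 to 582 at 24 h. Under library totals the log2 fold change at 46 days without library 12 was -0.93 for C3, -0.48 for F5, -0.0436 for Lrp1, -0.51 for Man2a1, -1.03 for Fth1 and -0.90 for Eef1a1, and at 24 h it was 0.0019 for Man2a1. That scaling moved the median of all tested features to -0.92 and 0.19. With each library left out at 46 days without library 12, the value ran from -0.0426 to 0.39 for C3, from -0.30 to 0.29 for Fth1 and from -0.10 to 0.40 for Eef1a1. For Lrp1 it ran from 0.32 to 0.72 and for F5 from 0.11 to 0.35. For Man2a1 it ran from 0.14 to 0.41 and for Iqgap2 from -0.34 to -0.11. At 24 h it ran from -0.76 to 0.0736 for C3, from -0.33 to 0.58 for C4b, from -0.81 to 0.0607 for F5, from -0.22 to 0.67 for Lrp1, from -0.25 to 0.54 for Iqgap2 and from -0.41 to 0.13 for Man2a1. For Fth1 it ran from 0.03 to 0.33 and for Eef1a1 from 0.15 to 0.50 at 24 h. The cause was not tested. The scale per late spermatid count was added after the data were seen.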
